A study of Mus musculus with 9 samples.

Results

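The cytosolic ribosomal protein genes of mouse pancreatic islets were followed through cytokine exposure with and without nanoparticles. They were chosen by name and biotype: protein-coding genes named Rps or Rpl with a number and at most a short suffix, together with Rpsa, Rplp0, Rplp1 and Rplp2, and without the Rps6k kinases. The rule found 77 of the 56748 genes in the count table, of which 31 encode small subunit proteins, 43 large subunit proteins and 3 the proteins of the stalk. All 77 passed the filter on low counts that left 17276 genes for testing, and the rule used no measured value.

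RNA was extracted from primary islets of wild-type C57bl/6 mice, the small endocrine organs of the pancreas in which insulin-secreting beta cells predominate, and was sequenced in 9 libraries. Control islets (3 libraries) were untreated. Inflamed islets (3 libraries) were exposed for 48 hours to the cytokines IL-1beta, TNF-alfa and IL6. Particle islets (3 libraries) received the same cytokines together with PD-G-MSNPs, which are mesoporous silica nanoparticles with a polydopamine coating designed to deliver nutrients, and the stated question was whether they protect islets under cytokines. Particles without cytokines were not analysed here. The islets were not sorted into cell types, and in whole islets fewer cells of a type and less RNA per cell cannot be told apart. Nothing in the labels ties the 3 libraries of a group to separate mice, so the p-values measure only how far these libraries differ, which may be technical.

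The ribosome is built from a small subunit, which reads the mRNA, and a large subunit, which forms the peptide bond, each a scaffold of ribosomal RNA covered with proteins needed in matched amounts. Ribosomal protein mRNAs are among the most abundant in any growing cell, and most begin with a C followed by a run of pyrimidines. This 5′ terminal oligopyrimidine (TOP) element lets the kinase complex mTORC1 and the RNA-binding protein LARP1 control their translation and stability together. Beta cells translate preproinsulin at a very high rate, and their capacity for protein synthesis is tied to insulin output.

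The TOP element lies at the transcription start, and start windows were read from RefSeq for GRCm38.p6, an earlier mouse build than the GRCm39 of the count table. Entries were found for 57 of the 77 genes, with 67 starts. Windows were taken from genes that rose in inflamed islets and from genes named by rule with a run at the start, both described below. Those of the risen genes Rpl10a, Rpl26 and Rps4x are not shown, although Rpl10a has a run of 7 pyrimidines near a start. The windows of 7 genes with the pyrimidine run at or near the start are shown as examples. Each has 30 bases, 15 before the annotated start and 15 from it, 5′ to 3′ on the gene's strand, with the pyrimidine run in capitals.
Rps15a (chr7:118116133-118116162, minus strand): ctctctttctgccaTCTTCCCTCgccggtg
Rps6 (chr4:86857353-86857382, minus strand): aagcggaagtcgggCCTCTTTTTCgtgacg
Rplp2 (chr7:141447636-141447665, plus strand): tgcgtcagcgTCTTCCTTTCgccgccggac
Rps10 (chr17:27635230-27635259, minus strand): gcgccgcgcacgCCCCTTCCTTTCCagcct
Rps24 (chr14:24490663-24490692, plus strand): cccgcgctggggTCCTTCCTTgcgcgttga
Rpl12 (chr2:32961697-32961726, plus strand): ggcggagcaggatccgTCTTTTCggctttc
Rpl39 (chrX:37085208-37085237, minus strand): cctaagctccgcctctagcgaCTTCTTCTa
In Rps15a, Rps6, Rplp2 and Rps10 the first transcribed base was a C followed by at least 4 further pyrimidines. In Rps24, Rpl12 and Rpl39 the run lay within 10 bases of the annotated start but did not include it as a C.

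A C with at least 4 further C or T stood exactly at 19.4% of the 67 starts of ribosomal protein genes, against 2.51% of the 32851 starts in RefSeq's table. Within 10 bases of the start the shares were 53.7% and 30.7%. The letters CCGGAA, the core bound by ETS family factors, were found on either strand of the 300 bases around 49.3% of the starts against 14.9% of all. AAGATGG, the core bound by YY1, was found around 16.4% against 6.34%. TATAAA, the TATA box, was found around 8.96% against 13.6%. These matches describe letters in a window and not bound sites.

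The total count ranged from 17832949 to 55865759, and inflamed 3 was the deepest library. The control 2 library stood apart for these genes: 76 of the 77 had lower CPM (counts scaled by library total and by edgeR's trimmed-mean, or TMM, factor) there than in the mean of control 1 and control 3. The median ratio over the 77 genes was 0.522, from 0.263 for Rps27a to 1.05 for Rps10, while the median over all tested genes without a 0 was 0.987. Inflamed 2 was low in the same way against inflamed 1 and inflamed 3, with a median ratio of 0.575 over the 77 genes, 75 of them below 1, and of 0.989 over all tested genes. The count of genes that rose in inflamed against control islets and the median fold changes are given with and without these libraries. Other counts and shares rest on all libraries unless stated.

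The 77 genes together took 3.34, 1.79 and 2.95% of all counts in the control libraries, 4.64, 3.52 and 5.45% in the inflamed libraries, and 4.16, 3.98 and 4.64% in the particle libraries. The group means were 2.69 ± 0.806% (SD, n = 3) in control, 4.54 ± 0.967% in inflamed and 4.26 ± 0.341% in particle islets. Every inflamed and every particle library lay above every control library, by a narrow margin between inflamed 2 and control 1, and the inflamed and particle groups overlapped.

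Between control islets and those given cytokines, the insulin share moved the other way. Ins1 and Ins2, the insulin genes of the mouse, took 28.8 ± 0.350% of counts in control, 17.7 ± 4.24% in inflamed and 15.4 ± 6.56% in particle islets. Counted outside the insulin genes and the mitochondrially encoded genes, the ribosomal protein share was 3.88 ± 1.14% in control, 5.63 ± 1.46% in inflamed and 5.13 ± 0.505% in particle islets. On that count the groups overlapped, since control 1 stood at 4.81% and inflamed 2 at 4.10%. The balance of the subunits differed between groups by less than the spread between control libraries: small subunit genes gave 40.2 ± 0.778% of the ribosomal protein counts in control, 40.7 ± 1.31% in inflamed and 40.4 ± 0.249% in particle islets.

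**Figure D1:**
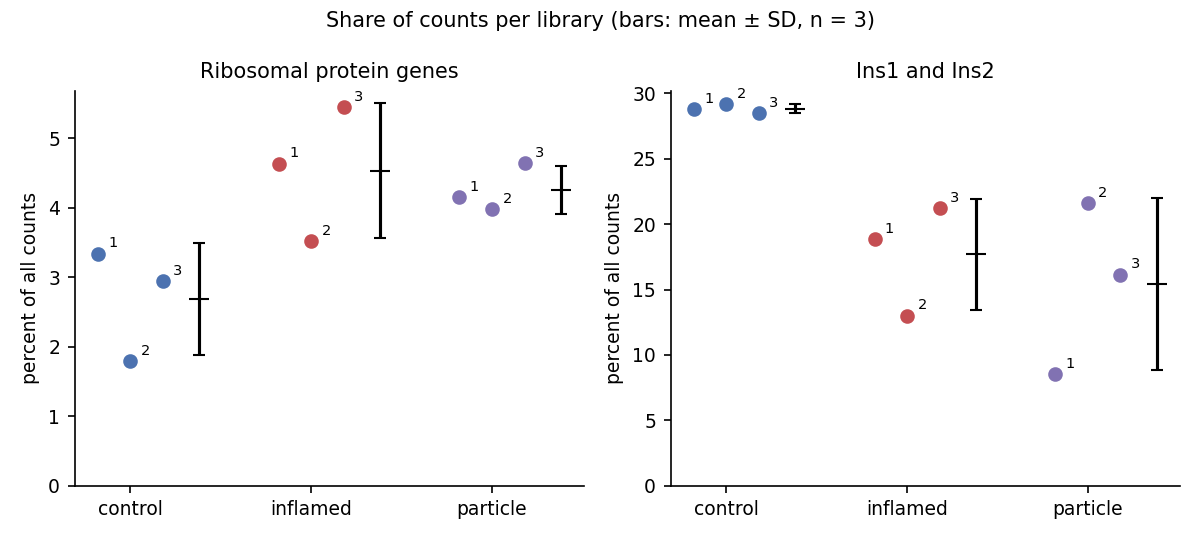
Percent of all counts per library taken by the ribosomal protein genes and by the insulin genes, in the 3 groups of 3 libraries; points are libraries and bars the mean and SD. The control mean of the ribosomal protein share is 2.69% and the inflamed mean 4.54%, while the insulin share goes from 28.8% to 17.7%.

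Levels between genes were compared per length, as FPKM (fragments scaled by gene length and library size). The length used was the deposited gene length, which for many genes exceeds that of a single transcript. For Rpl41 it was 1168 bases beside 509 in a GENCODE M21 transcript model, while for Rplp1 both were 499. The order between genes given here holds for the deposited lengths and may differ with transcript lengths. The median gene of the family had a mean of 235 FPKM over the 9 libraries, and 65 of the 77 were above 100 FPKM. Rplp1, an acidic stalk protein that helps recruit elongation factors, was highest, with 1628, 937 and 1680 FPKM in control, 2370, 1464 and 2857 in inflamed, and 1471, 1797 and 1568 in particle islets. Rps3a1, a small subunit protein, followed with a mean of 966 FPKM, Rpl36, a large subunit protein, with 952 and Rpl41, the shortest protein of the ribosome, with 828. The means of Rps3a1 and Rpl36 differed by far less than the spread of Rpl36, which ran from 459 FPKM in inflamed 2 to 1394 in inflamed 1.

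At the low end, 3 genes stood well below the rest. Rpl24, a large subunit protein at the bridge between the subunits, had a mean of 1.18 FPKM, with 0.825 to 1.23 in control, 0.824 to 1.66 in inflamed, and in particle islets 0.610 to 1.46. Rps10, a small subunit protein that is ubiquitinated when ribosomes collide, had a mean of 2.23 FPKM, with 1.51 to 2.19 in control, 2.23 to 2.92 in inflamed, and in particle islets 1.99 to 2.40. Rpl13a, a large subunit protein widely used as a reference gene, had a mean of 9.13 FPKM, with 7.25 to 11.2 in control, 5.07 to 12.3 in inflamed, and in particle islets 6.99 to 10.3. The next gene, Rpl21, was at 29.6 FPKM.

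The annotation sets those low genes apart as well. Each overlaps another annotated gene on its own strand that is listed at 0 in all 9 libraries: Gm28037 over Rpl24, Gm49804 over Rps10 and Gm45713 over Rpl13a. Only 1 other gene of the family, Rpl19, has such a neighbour that is not a small RNA (Gm11629, at most 5 counts in a library). The count assigned to these 3 genes is therefore uncertain, and the part of the overlap in their levels was not tested. Rpl24 and Rps10 are also the genes whose level was not reduced in inflamed 2, with ratios of 1.34 and 1.16 to the other inflamed libraries.

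In inflamed against control islets, 12 of the 77 genes rose, none fell and 65 did not pass the test (edgeR quasi-likelihood test, Benjamini-Hochberg adjusted over all 17276 genes, called at an adjusted p under 0.05). That is 15.6% of the family, beside a background of 20.7% of all tested genes called higher and 19% called lower. The log2 fold change was above 0 for 73 of the 77, with a median of 0.59, against 0.05 over all tested genes, and a range from -0.29 for Rpl21 to 1.62 for Rps20. In 16 genes, or 20.8%, every inflamed library lay above every control library, beside 28.3% of all tested genes. Positive fold changes were thus spread over most of the family. The share of its genes that passed the test lay below the background here and in 14 of 20 alternatives, and above it in the other 6; the difference was not tested.

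**Figure D2:**
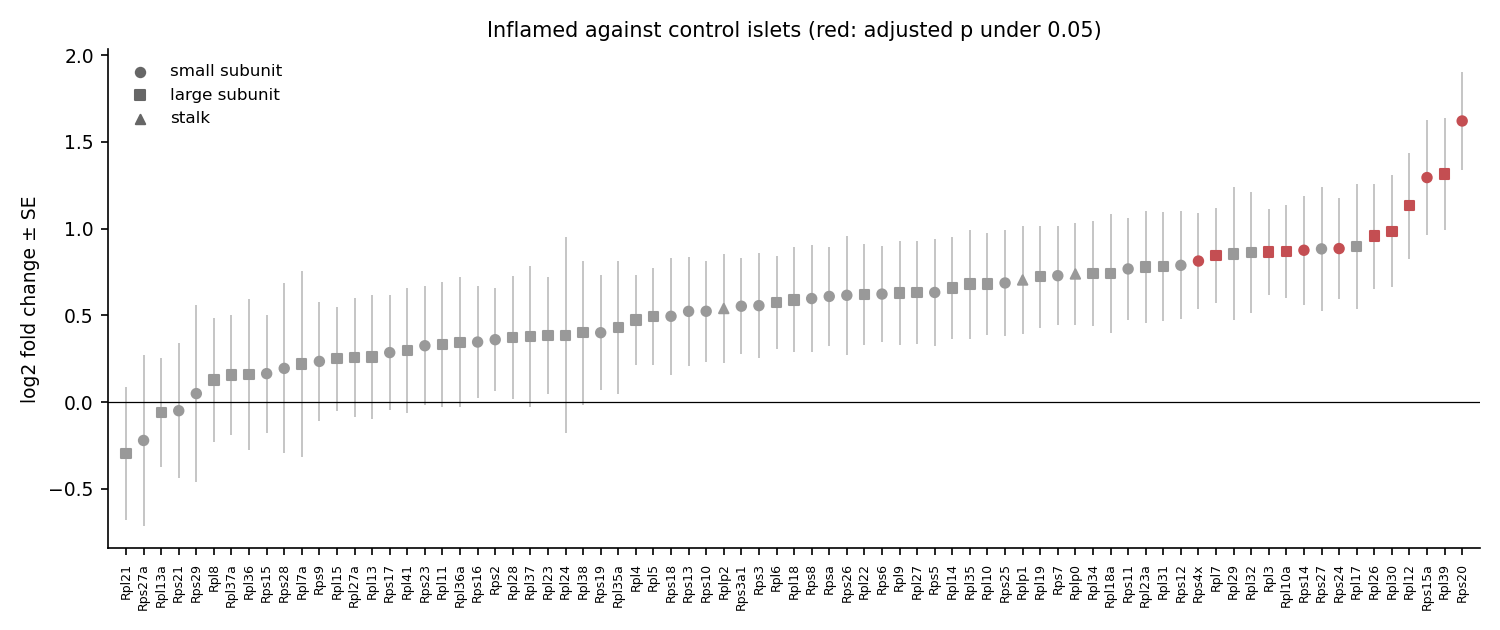
Log2 fold change with its standard error for the 77 genes in inflamed against control islets, ordered by size; the 12 genes with an adjusted p under 0.05 are in red and marker shapes give the subunit. Nearly all points lie above 0, with Rps20 highest at 1.62 and Rpl21 lowest at -0.29.

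The count of 12 leaned on single libraries. Without control 2 it was 3 (3.9% of the family, beside 14.4% of all tested genes called higher), and without control 3 it was 7 (9.09% beside 12.6%). Without inflamed 1 it was 5 (6.49% beside 16.2%) and without inflamed 3 it was 3 (3.9% beside 17%). Without inflamed 2 it was 25, or 32.5% of the family, which lay above the 18.3% of all tested genes. Leaving out control 2 and inflamed 2 together, an alternative chosen after seeing the data, gave 13 genes (16.9% beside 13%) and a median of 0.52. The median over the 77 genes stayed above 0 in each of these fits, from 0.32 without control 2 to 0.77 without inflamed 2. Scaling by library totals in place of TMM factors called 40 genes, or 51.9% of the family beside 24.5% of all tested genes, and moved the median of all tested genes to 0.22 and that of the family to 0.75, a distance of 0.53 against 0.54 with TMM factors.

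**Figure D3:**
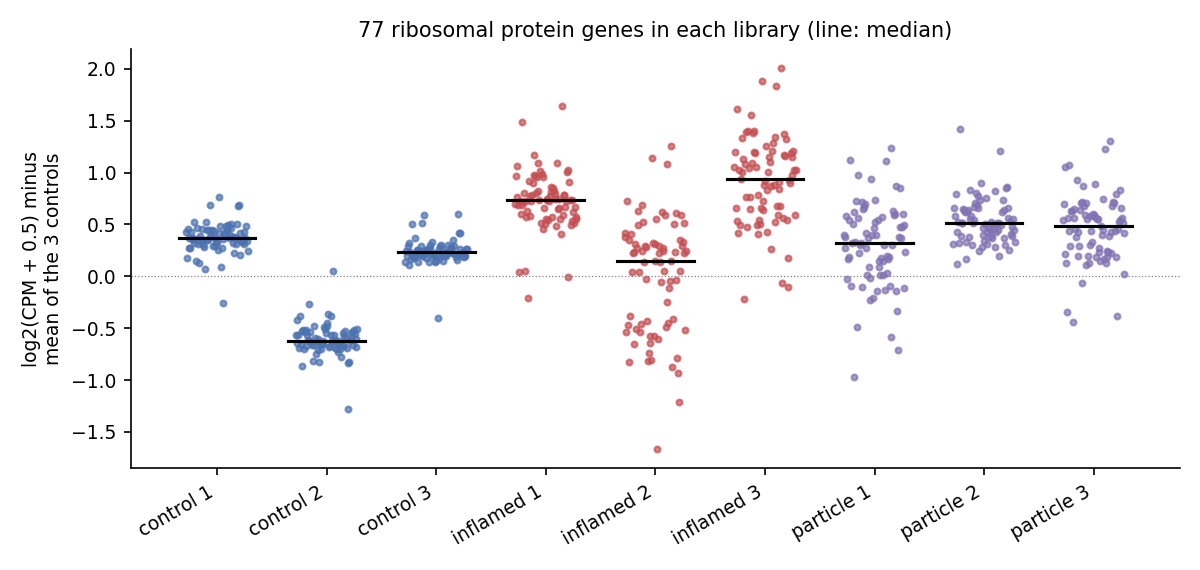
Level of each of the 77 genes in each library as log2(CPM + 0.5) minus the mean of the 3 control libraries; each point is a gene and the line the median. The control 2 median is -0.62 and the inflamed 2 median 0.15, below the inflamed 1 median of 0.73 and the inflamed 3 median of 0.94.

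Among small subunit genes, 5 of 31 rose. Rps20 (chr4:3831334-3835665 in GRCm39), a protein of the small subunit head that is ubiquitinated on collided ribosomes, changed most. It stood at 296, 161 and 277 CPM in control, 741, 567 and 951 in inflamed, and 557, 548 and 587 in particle islets. All inflamed and particle libraries lay above all control libraries. The mean went from 245 ± 73.0 to 753 ± 193 CPM (SD, n = 3), a log2 fold change of 1.62 (SE 0.282, edgeR adjusted p = 0.00146).

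Rps15a (chr7:117703595-117715411), a protein of the small subunit body whose start window above opens with a TOP run, stood at 286, 122 and 238 CPM in control, 432, 428 and 724 in inflamed, and 437, 358 and 474 in particle islets. Again no inflamed library fell into the control range. Its log2 fold change was 1.29 (SE 0.330, edgeR adjusted p = 0.0102). The other small subunit genes that rose were Rps24, linked to Diamond-Blackfan anaemia, Rps14, a protein of the platform near the mRNA exit, and Rps4x, encoded on the X chromosome. Rps24 went from 439 ± 125 to 810 ± 258 CPM, Rps14 from 601 ± 210 to 1103 ± 311 and Rps4x from 498 ± 147 to 875 ± 195.

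Among large subunit genes, 7 of 43 rose. Rpl39 (chrX:36346173-36349055), a small protein lining the tunnel through which the new peptide leaves, stood at 212, 99.7 and 182 CPM in control, 305, 345 and 579 in inflamed, and 301, 292 and 235 in particle islets. The 3 ranges did not overlap. The log2 fold change in inflamed against control islets was 1.31 (SE 0.321, edgeR adjusted p = 0.00813).

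Rpl12 (chr2:32851571-32855357), at the base of the stalk, stood at 406, 228 and 413 CPM in control, 705, 559 and 1029 in inflamed, and 503, 584 and 701 in particle islets. Inflamed libraries were all above control libraries, and particle libraries overlapped with the inflamed ones. Its log2 fold change was 1.13 (SE 0.306, edgeR adjusted p = 0.0135), and the call was lost without control 2 (adjusted p = 0.0511) and without inflamed 3 (adjusted p = 0.0598).

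Rpl26 (chr11:68792409-68797815), which lies near the mouth of the exit tunnel and is modified by UFM1, stood at 450, 222 and 403 CPM in control, 648, 530 and 908 in inflamed, and 674, 526 and 651 in particle islets. The inflamed and particle ranges overlapped, and both lay above control. The log2 fold change was 0.96 (SE 0.303, edgeR adjusted p = 0.0275) in inflamed against control islets. The call was lost without control 2 (adjusted p = 0.0948), control 3 (0.0623), inflamed 1 (0.0554) or inflamed 3 (0.115).

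Rpl30 (chr15:34440651-34443786), a large subunit protein that also binds selenocysteine insertion elements, stood at 190, 114 and 272 CPM in control, 407, 260 and 472 in inflamed, and 168, 222 and 173 in particle islets. Control 3 lay above inflamed 2, and the particle libraries lay within the control range and below all inflamed libraries. Its log2 fold change was 0.98 (SE 0.322, edgeR adjusted p = 0.0316) in inflamed against control islets. The call was lost without control 1 (adjusted p = 0.0909), control 2 (0.113), inflamed 1 (0.0857) or inflamed 3 (0.112), and with only the compared groups (0.0501). The remaining large subunit genes that rose were Rpl10a, a protein of the L1 stalk, Rpl3, next to the catalytic centre, and Rpl7. Rpl10a went from 259 ± 60.7 to 473 ± 125 CPM, Rpl3 from 513 ± 134 to 935 ± 131 and Rpl7 from 490 ± 121 to 881 ± 231.

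**Figure D4:**
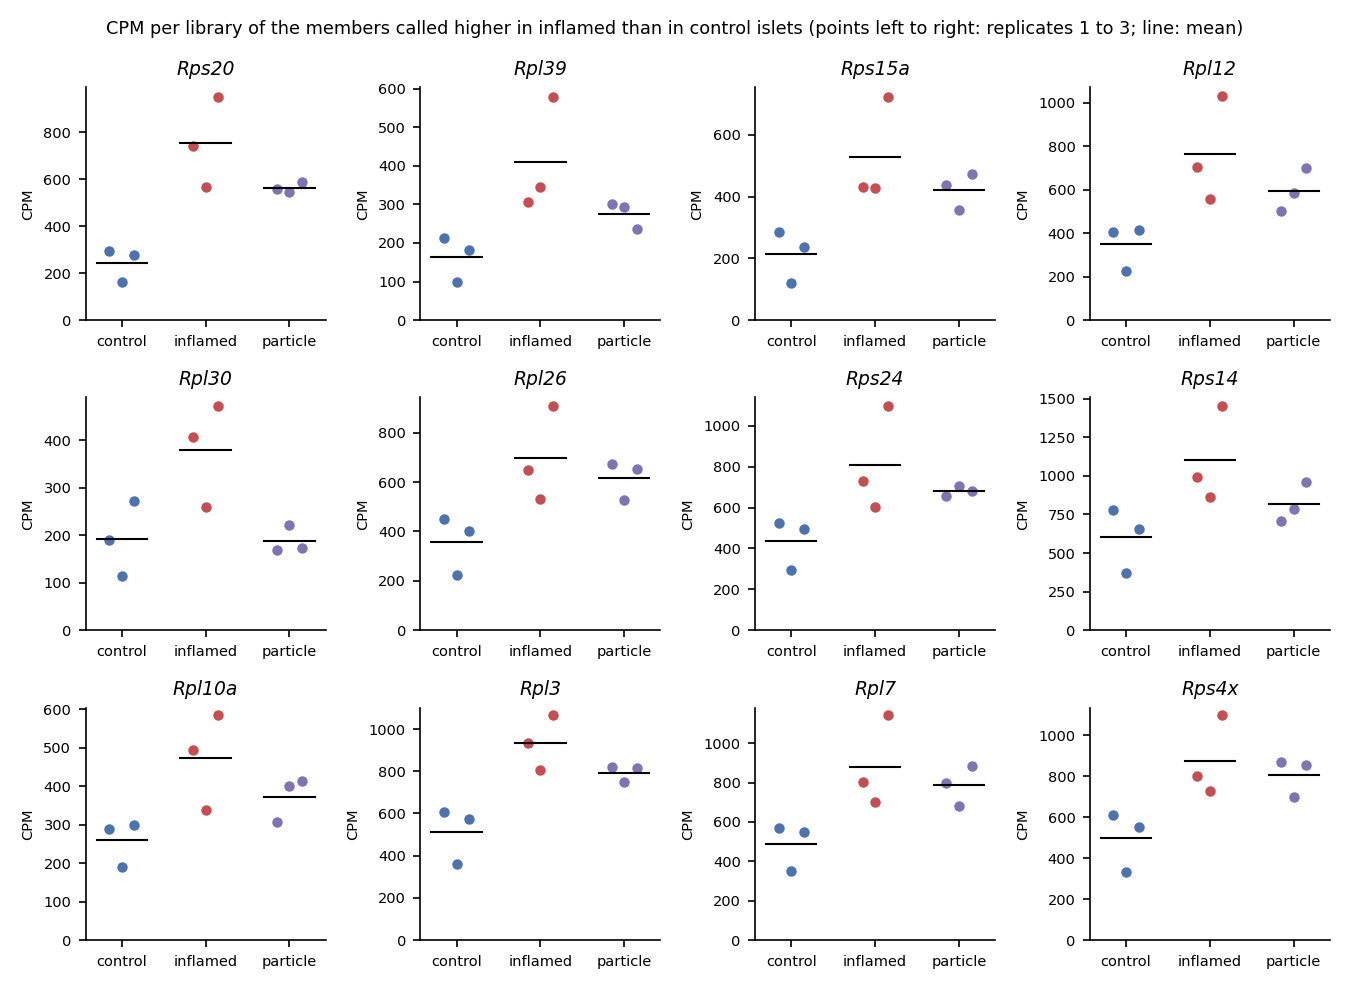
CPM per library of the 12 genes that rose in inflamed against control islets; points are replicates 1 to 3 from left to right and the line is the group mean. Control 2 is the lowest control library in each panel, and in the Rpl30 panel the particle libraries sit at 168 to 222 CPM, below the inflamed libraries.

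Of the 12 calls, those of Rps20, Rpl39 and Rps15a held in all 20 alternatives tried. Without control 2, and likewise without inflamed 3, the other 9 calls were lost: those of Rpl12, Rpl30, Rpl26, Rps24, Rps14, Rpl10a, Rpl3, Rpl7 and Rps4x. The adjusted p-values of these 9 without control 2 ran from 0.0511 for Rpl12 to 0.150 for Rps14. Rps14 lost its call in 12 of the 20 alternatives, the most of any. Strand use in counting was not stated in the labels, so reads of a gene and of an antisense neighbour may not be told apart. This concerns Rpl12, Rpl30, Rps14, Rpl10a and Rpl3 among the 12. The neighbour over Rps14 is Ndst1, with up to 3391 counts in a library, that over Rpl3 is Syngr1, with up to 3658, and that over Rpl12 is Lrsam1, with up to 825. The neighbours over Rpl30 and Rpl10a had at most 17 and 3 counts. Reads may also be shared with the pseudogenes of this family, of which 322 are listed and 95 were tested.

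None of the 3 stalk genes passed the test. Rplp0, the stalk scaffold and a common reference gene, stood at 994, 718 and 1140 CPM in control, 1591, 1088 and 2077 in inflamed, and 994, 1215 and 1367 in particle islets. Inflamed 2 lay below control 3, and the log2 fold change was 0.74 (SE 0.295, edgeR adjusted p = 0.0670). Rplp1 had a log2 fold change of 0.70 and Rplp2 of 0.54, with adjusted p = 0.0940 and 0.192.

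A chosen list of genes of the family with known side roles was named by rule, and no gene on it passed the test in inflamed against control islets. The list does not hold every gene with such a role. Rpl30, which also binds selenocysteine insertion elements, was not on it and was among the genes that rose. Rps6, the ribosomal substrate of the S6 kinases, stood at 739, 416 and 685 CPM in control and 911, 747 and 1174 in inflamed islets, with no overlap, a log2 fold change of 0.62 and an adjusted p of 0.0927. Rpsa, which also serves as a laminin receptor, stood at 906, 540 and 920 CPM in control and 1140, 910 and 1562 in inflamed islets, where the groups overlapped by a few CPM (log2 fold change 0.61, adjusted p = 0.108). Rps3, which also binds the NF-kB subunit RelA, stood at 731, 380 and 692 against 959, 597 and 1095 CPM, with inflamed 2 inside the control range (log2 fold change 0.56, adjusted p = 0.165).

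Rpl5 and Rpl11 form a complex with the ribosomal 5S RNA that restrains Mdm2, the ubiquitin ligase of p53. Rpl5 stood at 656, 360 and 612 CPM in control and 745, 580 and 963 in inflamed islets, and its log2 fold change was 0.49 (adjusted p = 0.181). Rpl11 stood at 531, 247 and 442 against 659, 266 and 612 CPM, a log2 fold change of 0.33 (adjusted p = 0.486). In both genes inflamed 2 fell among the control values.

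Rps19, the gene most often mutated in Diamond-Blackfan anaemia, stood at 452, 186 and 387 CPM in control and 469, 310 and 574 in inflamed islets, with a log2 fold change of 0.40 (adjusted p = 0.357). Rps27a, made as a fusion to ubiquitin, stood at 423, 108 and 398 against 262, 152 and 383 CPM, and its log2 fold change was -0.22 (SE 0.491, adjusted p = 0.746). It is 1 of the 4 genes with a fold change below 0, beside Rpl21, Rpl13a and Rps21, and its control 2 value was the lowest in the family relative to the other controls.

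Transcript features were set beside the size of the change. Over the 77 genes Pearson's r with the log2 fold change in inflamed against control islets was 0.036 for coding length, -0.274 for GC content and 0.289 for transcript length (GENCODE M21 models), and 0.095 for the log2 mean FPKM. These are correlations across genes that share libraries and are given with no test. Rps20, with the largest fold change, also had by far the longest transcript model, 3706 bases, and Rpl5 followed with 2045. The value for transcript length may rest on Rps20, and r was not computed without it. The 12 genes that rose had a median GC content of 49.15% and a median coding length of 444 bases, against 52.8% and 468 bases in the other 65. A small nucleolar RNA lies within the span of 5 of the 12 and 25 of the 65. Genes were spread over 19 chromosomes, with 14 on chromosome 7. Of the called genes with a RefSeq start, 5 of 7 carried a TOP-like run within 10 bases of it, as did 29 of 50 that were not called.

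The low values of inflamed 2 were uneven within the family. The ratio to the mean of inflamed 1 and inflamed 3 was 0.182 for Rpl7a, 0.306 for Rps29, 0.320 for Rpl38 and 0.329 for Rps28, but 0.826 for Rpl4. Rps29, Rpl38 and Rps28 encode some of the shortest ribosomal proteins. Short genes did not all go this way, since the ratio was 0.426 for Rpl41 (138 coding bases) but 0.781 for Rpl39 (153). Rpl7a, with the lowest ratio, has 798 coding bases. Over the 77 genes Pearson's r between this log2 ratio and coding length was 0.371 and with GC content -0.17, given as a description across genes.

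In particle against inflamed islets, none of the 77 genes passed the test, and none of the 17276 tested genes did, so the background was 0% in either direction by edgeR. At an unadjusted p under 0.05 stood 1 gene of the family and 2603 of all tested genes. DESeq2 called 487 genes higher and 296 lower, among them 1 of the family, Rpl30, lower with an adjusted p of 0.0368. A p that misses the threshold does not show that the groups were alike. The log2 fold change was below 0 for 64 of the 77, with a median of -0.17, against 0.04 over all tested genes. The median was -0.37 without inflamed 2 and turned to 0.04 without inflamed 3.

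The genes with the smallest adjusted p were Rpl30, Rps12 and Rpl39. Rpl30, whose values are given above, had a log2 fold change of -1.01 (SE 0.322, edgeR adjusted p = 0.194) and no overlap between the groups. Rps12, a protein of the small subunit head, stood at 327, 223 and 449 CPM in inflamed and 186, 239 and 243 in particle islets, with overlap at inflamed 2 (log2 fold change -0.58, SE 0.310, edgeR adjusted p = 0.413). In control islets Rps12 had stood at 243, 120 and 215 CPM. Rpl39 had a log2 fold change of -0.57 (SE 0.316, edgeR adjusted p = 0.433) and no overlap. Rpl30 and Rpl39 were the 2 genes of the family in which every particle library lay below every inflamed library, beside 6.82% of all tested genes; in none did they all lie above, beside 8.87%.

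In particle against control islets, which uses the same control libraries as the first comparison, 1 of the 77 genes rose and none fell, beside a background of 11.4% of all tested genes called higher and 5.92% called lower. The gene was Rps20, with a log2 fold change of 1.20 (SE 0.280, edgeR adjusted p = 0.0163). The call was lost without control 2 (adjusted p = 0.0563) and without control 3 (adjusted p = 0.0520). The median over the family was 0.39, against 0.05 over all tested genes, and 0.11 without control 2. In 28 genes, or 36.4%, every particle library lay above every control library, beside 22.9% of all tested genes. Of all called genes 65.7% were higher, a share that was 84.2% with library totals, 54.7% with DESeq2 and 42.7% with limma on log2(FPKM + 1), while no fit called a ribosomal protein gene lower.

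Other proteins of the cytosolic ribosome lie outside the naming rule. Rack1, a scaffold on the small subunit head, rose in inflamed against control islets from 658 ± 194 to 1179 ± 246 CPM (log2 fold change 0.84, edgeR adjusted p = 0.0321). Of 7 tested paralogs, 3 rose and 1 fell. Rpl7l1 went from 61.6 ± 5.38 to 149 ± 4.63 CPM and Rps27l, a p53 target, from 70.1 ± 22.9 to 184 ± 50.4, while Rps4l fell from 79.9 ± 16.5 to 36.8 ± 10.1. Of the 95 tested pseudogenes 10 rose and 1 fell, and of 77 tested mitochondrial ribosomal protein genes 22 rose and 1 fell.

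Genes that build ribosomes and regulate their use were counted beside the same background of 20.7% higher and 19% lower. Of 48 ribosome biogenesis genes 35 rose and none fell in inflamed against control islets, with a median log2 fold change of 0.91. Nop2, a methyltransferase of ribosomal RNA, went from 38.5 ± 5.13 to 94.8 ± 9.92 CPM. Nop14, a component of the small subunit processome, went from 27.0 ± 1.39 to 72.3 ± 7.46, and the helicase Ddx21 from 29.2 ± 2.76 to 79.6 ± 5.28. Of 18 tested genes of RNA polymerase I and 5S RNA supply 6 rose and 1 fell. Myc, the transcription factor that drives ribosome production, averaged 10.3 ± 6.74 CPM in control, 63.4 ± 5.11 in inflamed and 63.5 ± 14.6 in particle islets, with a log2 fold change of 2.62 for the cytokines (edgeR adjusted p = 0.00123). The difference in frequency between these lists and the ribosomal protein genes was not tested.

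Of 36 initiation factors 21 rose and none fell. Eif6, which keeps the large subunit from joining too early, went from 44.5 ± 6.38 to 209 ± 42.0 CPM, Eif5b, which joins the subunits, from 59.6 ± 1.37 to 162 ± 25.8, and Pabpc1, the poly(A)-binding protein whose mRNA also carries a TOP element, from 227 ± 19.3 to 824 ± 123. Of 10 genes listed under elongation factors, not all of which are such factors, 3 rose and 2 fell. Eef1e1 rose from 11.9 ± 2.11 to 26.2 ± 6.93 CPM and Eif5a from 371 ± 47.3 to 594 ± 98.7. Eef2k, the kinase that inhibits elongation factor Eef2, fell from 19.4 ± 2.16 to 7.99 ± 0.884 CPM. Eef2 itself stood at 3004 and 3182 CPM on average and did not pass the test (edgeR adjusted p = 0.841).

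Of 17 genes of mTORC1, LARP1 and the S6 kinases 4 rose and 5 fell. The repressors of translation Pdcd4 and Eif4ebp2 fell from 99.5 ± 21.9 to 19.3 ± 5.37 CPM and from 181 ± 13.9 to 68.4 ± 14.3, and the mTOR inhibitor Deptor fell from 48.8 ± 8.47 to 22.4 ± 2.29. Larp1 rose from a mean of 184 to 294 CPM (adjusted p = 0.0253). Of 17 tested genes of ribosome quality control 7 rose and 1 fell. Map3k20, the kinase that senses collided ribosomes, went from 7.02 ± 2.37 to 30.3 ± 6.19 CPM. In particle against inflamed islets no gene of any of these lists passed the test. In particle against control islets 28 of 48 biogenesis genes and 10 of 36 initiation factors rose, and none of either list fell.

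**Figure D5:**
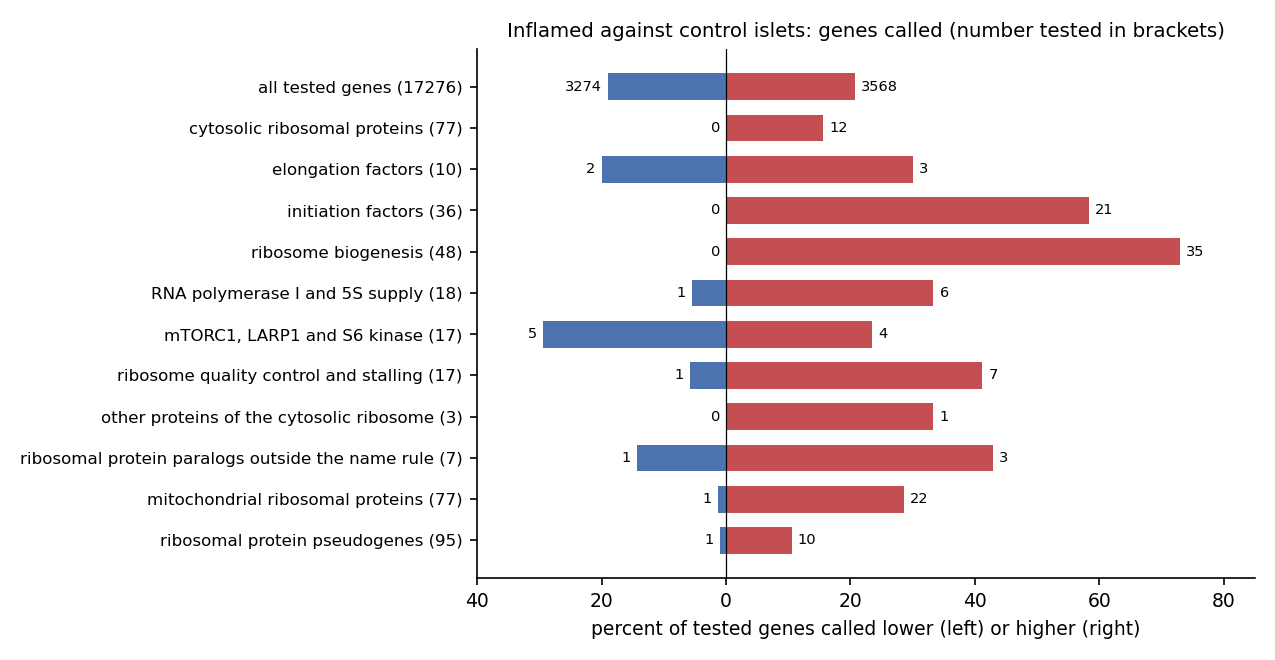
Percent of tested genes called lower (left) or higher (right) in inflamed against control islets, for the ribosomal protein genes, the related lists and all tested genes, with the number tested in brackets. The bar of the ribosomal protein genes reaches 15.6% higher, that of all tested genes 20.7%.

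Several lists of cell type markers moved with the comparison, but not all. The summed level of the 8 beta cell markers ranged over 340525 to 359059 CPM in control, 123392 to 228837 in inflamed, and in particle islets 87297 to 239623, and 7 of the 8 fell in inflamed against control islets. Of 7 macrophage markers 6 rose, with summed levels of 301 to 368 CPM in control, 952 to 1015 in inflamed, and in particle islets 313 to 469. Of 6 endothelial markers 4 fell and of 4 alpha cell markers 3 fell. None of the 7 acinar markers passed the test in any comparison, and their sum varied widely within each group. It ranged over 3.14 to 1226 CPM in control, 25.0 to 2641 in inflamed, and in particle islets 5.27 to 2969. The lymphocyte markers Cd3e and Ms4a1 were at 0 in all libraries. The part of cell composition in the ribosomal protein values was not tested.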

How the data were processed

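RNA sequencing libraries of islets (9) were grouped by sample title. The deposited count table gives raw whole-number counts, and the deposited FPKM table the same genes scaled by gene length. HTSeq, DESeq2 and build GRCm39 are named in the submitters' processing notes; versions are not given in the sources used here. Each FPKM value equals the authors' count divided by gene length and 1 constant per library, which was 0.8605 to 1.194 of the total count. The control columns carry no group word and were matched as the set left over.

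The test on these counts was edgeR's (version 4.0.16, R 4.3.3): filterByExpr (smallest count 10), TMM factors, robust quasi-likelihood fits to all 9 libraries and Benjamini-Hochberg adjustment within a comparison, with calls at an adjusted p under 0.05. CPM uses TMM-scaled totals. Total counts of 17832949 to 55865759 set the counting precision. Replicates differed by chi-square per degree of freedom of 41.1 to 193, far over sampling noise, and all were kept. The fewest counts were those of Rpl24, with 13 to 92 per library. The procedure was tested on simulated data.

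Alternatives were RLE factors, library totals, TMM without the top 20, mitochondrial and ribosomal protein genes, no filter, a filter of 1 CPM in 3 or more libraries, DESeq2 1.42.0, limma 3.58.1 on log2(FPKM + 1) or log2(FPKM + 0.1), only the compared groups, a replicate block, and leaving out each library. The genes and lists were chosen with earlier results of these data known. Named by rule were up to 6 called genes by size, the 4 highest and 3 lowest by FPKM, those with the smallest adjusted p where none was called, and 11 genes with known side roles; from each related list, up to 3 called genes. The 6 further called genes, and Rpl21, Rps21, Rpl19, Rpl4, Rpl7a, Rps29, Rpl38, Rps28, Eef2 and Larp1, were named after their values were seen. GRCm38 models gave transcript features only.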

Additional observations from a re-analysis of the deposited data

How the results depend on the processing

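The count of genes that rose in inflamed against control islets was 12 (15.6% of the family beside 20.7% of all tested genes). It became 40 with library totals (51.9% beside 24.5%), 23 with DESeq2 (29.9% beside 22%), 21 with the replicate block (27.3% beside 18.2%) and 8 with only the compared groups (10.4% beside 21.3%), and ranged from 3 to 25 when a library was left out. For particle against control islets the count was 1, or 1.3% of the family beside 11.4% of all tested genes. The count became 13 of 77 with library totals (beside 18.5% of all tested genes) and 3 without a count filter (beside 5.91%). It was 3 with DESeq2 (beside 13.6%) and 4 with the replicate block (beside 9.42%). When a library was left out it ranged from 0 to 1, beside 4.92 to 13.4% of all tested genes. For particle against inflamed islets DESeq2 called 1 gene lower in place of 0, and without particle 3 edgeR called 636 genes higher and 306 lower but none of the family. The causes were not tested. Outside insulin and mitochondrial genes the ribosomal protein share of counts moved to 3.88, 5.63 and 5.13% in control, inflamed and particle islets; as a share of summed FPKM it was 3.41% in control, 6.42% in inflamed and 6.17% in particle islets.

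Deviations of same-numbered libraries correlated from -0.224 to 0.151. With 3 libraries a group this cannot decide whether the replicate numbers pair the samples. The low libraries of this family, control 2 and inflamed 2, share a number, but particle 2 was not low. Its median log2 level against the control mean was 0.51, beside 0.32 in particle 1 and 0.49 in particle 3. Pairing is not stated in the labels, and the block is reported only here. Of the single-gene results under all alternatives, 1665 kept their side of the threshold, 26 gained a call, 49 lost a call and 0 reversed. With 3 libraries a group, and control 2 and inflamed 2 low for this family, the number of genes past the test is uncertain. The sources used here do not give strand use or the origin of replicates.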
